A study of Arabidopsis thaliana with 16 samples.

Results

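The genes described here are the UGT glycosyltransferases and the BGLU beta-glucosidases of Arabidopsis thaliana, taken as every gene whose symbol is UGT or BGLU followed by a number and that has a probe set matching that gene alone. There were 67 such genes, 47 UGT and 20 BGLU, of 13356 genes with a single-gene probe set, and each of the 67 had 1 probe set. The annotation table used for names lists 58 UGT and 40 BGLU symbols, so a smaller share of the listed BGLU symbols than of the listed UGT symbols is covered. These are counts of symbols, not of all genes in each family, so coverage of the whole families is not known here. A further 6 genes of the families appear under other symbols and 4 probe sets are shared with a second gene. These were kept out of all counts and are described separately.

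UGT enzymes move a sugar, in most cases glucose, from a UDP-sugar onto a small molecule such as a flavonoid, a phenylpropanoid, a hormone or a glucosinolate precursor. The transfer often makes the molecule inactive, more soluble or fit for storage. The UGT family is divided into lettered groups by sequence relatedness, which the family number in each symbol follows. BGLU enzymes do the reverse, since they cut glucose off stored conjugates, and some of the family sit in ER bodies, compartments of Brassicaceae cells that hold beta-glucosidases for defence.

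Whole seedlings aged 4 days were profiled on 16 ATH1 arrays, in 4 groups of 4 that the study calls independent biological replicates. All groups carried the transgene FHY3p:FHY3-GR in the fhy3-4 mutant, so functional FHY3, which acts in far-red light signalling through phytochrome A as a transcription factor, was supplied as a fusion to the glucocorticoid receptor driven by its native promoter. The fusion stays in the cytoplasm until dexamethasone (DEX) lets it into the nucleus. The groups were continuous far-red light with DEX, far-red light with mock, darkness with DEX and darkness with mock, where DEX was 10 µM and mock an equal volume of ethanol, both for 2 h. How many independent transgenic lines were used is not given in the sources used here, and neither wild type nor fhy3-4 seedlings without the transgene were analysed here. FHY3 itself had no named single-gene probe set, so the targeted gene was not analysed here.

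Signals are on the log2 scale, and a log2 change is the mean of 4 arrays minus the mean of 4 others. A change was called at an adjusted p under 0.05 in limma over all 22746 probe sets. Array medians lay between 6.6 and 6.68 and arrays of a group correlated at 0.9956 to 0.9981. The SD between arrays of a group, pooled over the 4 groups, had a median of 0.131 for UGT genes, 0.127 for BGLU genes and 0.121 for all probe sets. In whole seedlings fewer cells of a type and less RNA per cell cannot be told apart. Markers of photosynthetic tissue gave signal in every group. The summed linear signal of the 3 measured photosynthetic markers of 6 listed was 17000 to 17500 in far-red with DEX, 16400 to 18000 in far-red with mock, 5950 to 6510 in darkness with DEX and 5490 to 6550 in darkness with mock. All 3 (PSAN, RCA and SBPASE) were called higher in far-red in both treatments, and their part in the light changes below was not tested. No listed root marker had a named single-gene probe set. The difference between the 3' and 5' ubiquitin control probe sets, a measure of RNA integrity, averaged 1.27 ± 0.064 in far-red with DEX, 1.19 ± 0.047 in far-red with mock, 1.21 ± 0.042 in darkness with DEX and 1.27 ± 0.011 in darkness with mock (SD, n = 4 each). For GAPDH it averaged 0.998 ± 0.15, 1.16 ± 0.093, 0.94 ± 0.11 and 1.01 ± 0.092, and for actin 1.44 ± 0.11, 1.41 ± 0.12, 1.36 ± 0.16 and 1.37 ± 0.15, in the same order of groups. The part of RNA integrity in the results was not tested.

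More BGLU than UGT genes ranked low among probe sets. Of 20 BGLU genes, 11 had a mean below the bottom quartile of probe set means in every group and 9 were above it in every group. Of 47 UGT genes, 5 were under it in every group and 40 in none. The quartile was 4.43 in far-red with DEX, 4.45 in far-red with mock, 4.43 in darkness with DEX and 4.44 in darkness with mock, on the log2 scale. The dim BGLU genes include all 6 measured members of BGLU26 to BGLU33, which lay between 3.36 and 4.26 as group means. That range holds BGLU28, known for induction by sulfur shortage, and BGLU33, known to release abscisic acid from its glucose ester.

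**Figure D1:**
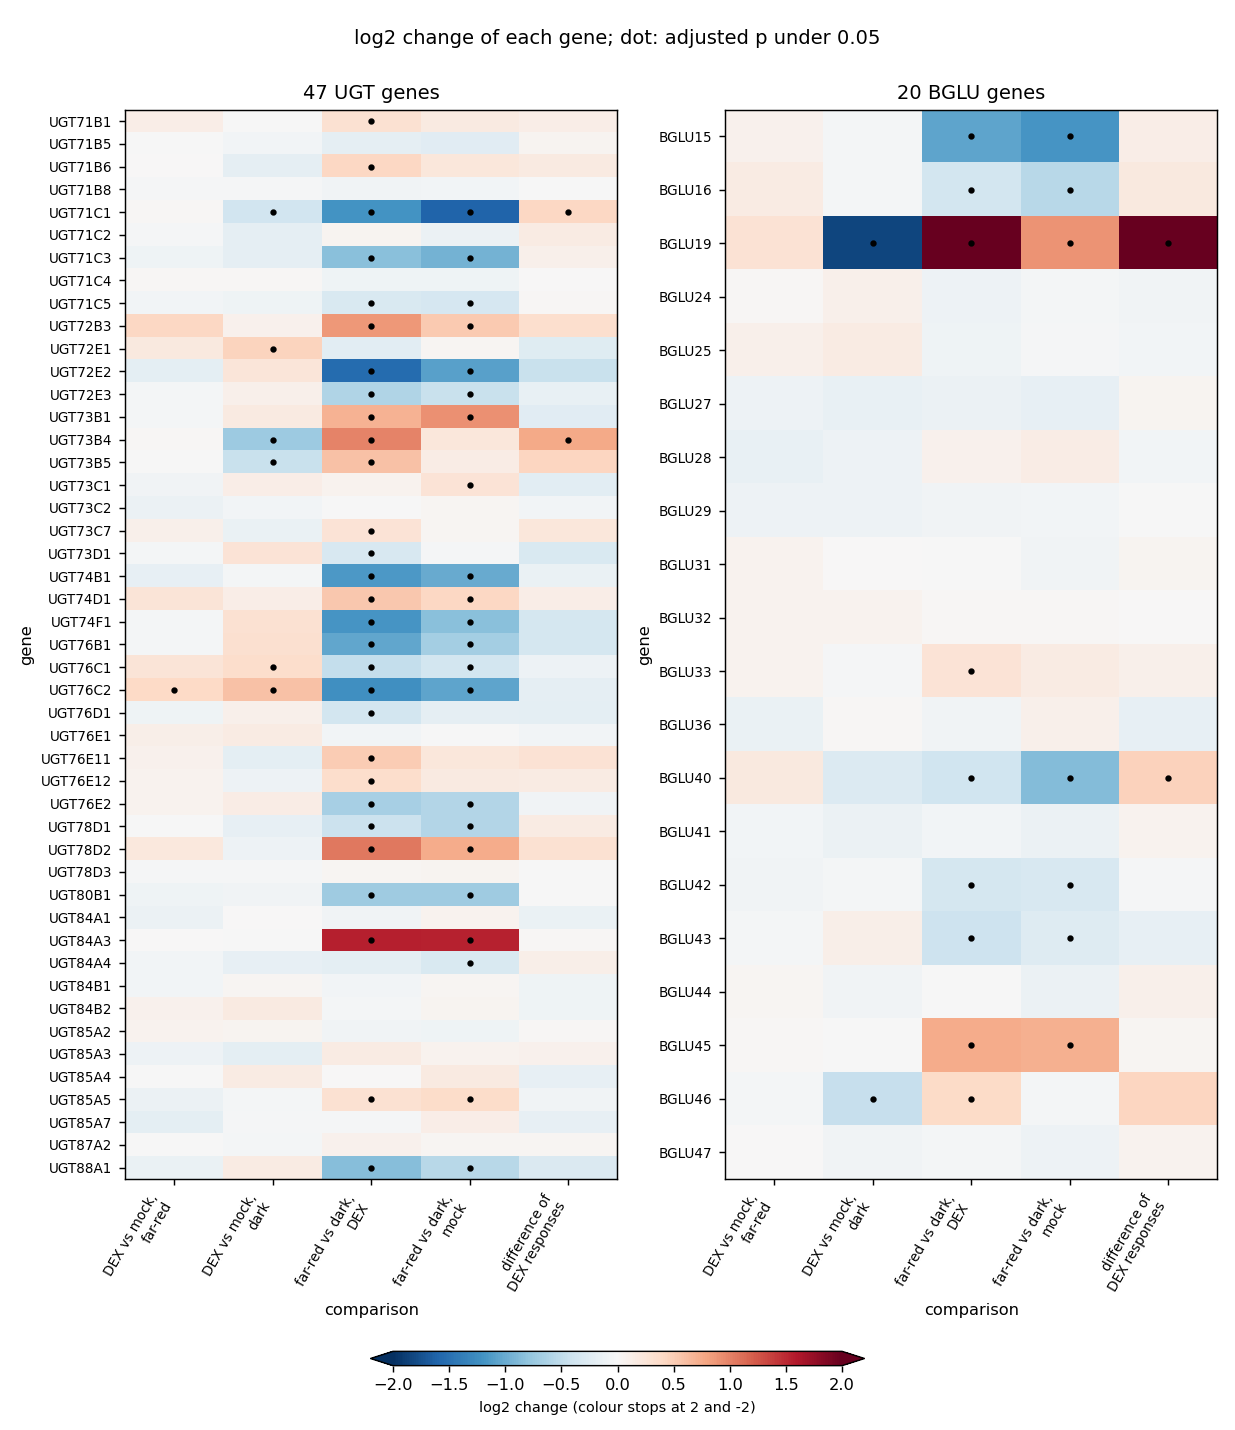
log2 change of each UGT gene (left panel) and BGLU gene (right panel) in the 5 comparisons, with red for higher and blue for lower in the group named before "vs", and for the last column for a more positive DEX response in far-red than in darkness. A dot marks an adjusted p under 0.05. Dots are most frequent in the far-red vs dark columns, with 38 genes under DEX and 29 under mock. They are fewer in the DEX vs mock columns, with 1 in far-red and 8 in darkness.

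DEX for 2 h changed few of these genes in darkness. Called genes numbered 8 of 67 (11.9%), against 5.9% of all probe sets. Higher with DEX were 3 UGT genes and no BGLU gene, against 2.34% of all probe sets higher. Lower with DEX were 3 UGT and 2 BGLU genes, against 3.56% of all probe sets lower. The median change was -0.005 over the 47 UGT genes, -0.037 over the 20 BGLU genes and 0.008 over all probe sets. The 4 DEX arrays lay wholly above or wholly below the 4 mock arrays for 12 of the 67 genes, against 10.6% of all probe sets.

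BGLU19 fell more than any other member. It belongs to the BGLU18 to BGLU25 range, which includes the beta-glucosidases of ER bodies. Its log2 signal was 5.66, 5.3, 5.25 and 5.67 in darkness with DEX, against 7.59, 7.06, 7.59 and 6.97 in darkness with mock. In far-red it was 8.41, 8.57, 8.45 and 8.6 with DEX, against 8.04, 8.13, 8.07 and 8.6 with mock. The dark DEX arrays lie more than 1 log2 unit below every other array, while in far-red the DEX and mock arrays overlap, with mock replicate 4 above the other 3. The change was 3.57-fold lower in darkness (log2 change -1.83 ± 0.14, SE, adjusted p = 3.72e-08) and not called in far-red (0.30 ± 0.14, 95% interval -0.0044 to 0.60, adjusted p = 0.509). The other measured members of its range, BGLU24 (0.09) and BGLU25 (0.16), were not called in darkness. BGLU24 was dim, under the lower quartile in every group, so its missing call says little. Relatives outside the rule were not called either. The probe set shared by BGLU22 and BGLU21 changed by -0.09, and PYK10 (BGLU23), a major ER body enzyme of seedlings, by 0.04. Genes that mark seed tissue moved with BGLU19. Both measured seed markers of 7 listed fell with DEX in darkness, PAP85, a vicilin-like storage protein gene, by 1.69 (adjusted p = 8.09e-05) and AT2G28490, a cupin family gene, by 1.95 (adjusted p = 4.29e-08). Their summed linear signal was 72.2 to 115 in darkness with DEX, against 253 to 372 with mock, and 347 to 495 in far-red with DEX, against 376 to 617 with mock. The part of seed tissue or seed RNA in the BGLU19 change was not tested.

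UGT73B4 and UGT73B5, neighbours on chromosome 2 in group D, whose members are known for induction by stress, both fell. UGT73B4 measured 6.16, 6.25, 6.28 and 6.17 in darkness with DEX, against 7.13, 6.78, 7.03 and 6.86 with mock. UGT73B5 measured 6.12, 6.12, 6.26 and 6.31 in darkness with DEX, against 7.01, 6.43, 6.71 and 6.42 with mock. Every DEX array was below every mock array for both genes, by a wider gap for UGT73B4. The changes were -0.73 ± 0.10 (SE, adjusted p = 4.27e-05) for UGT73B4 and -0.44 ± 0.12 (SE, adjusted p = 0.0288) for UGT73B5. The probe set that UGT73B2 and UGT73B3 share, kept out of the counts, fell by 0.32 (adjusted p = 0.0362). The remaining member of the subfamily, UGT73B1, was not called (0.18, adjusted p = 0.495). The call on UGT73B5 was lost in 4 of 16 fits that each left out 1 array, those without dark DEX replicate 1 (adjusted p = 0.0859) or 2 (0.0858) and those without dark mock replicate 1 (0.118) or 3 (0.0841).

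UGT71C1, a group E enzyme that acts on phenolic compounds, measured 9.68, 9.59, 9.69 and 9.69 in darkness with DEX, against 9.97, 10.07, 10.11 and 10.0 with mock. The arrays do not overlap and the change was -0.38 ± 0.068 (SE, adjusted p = 0.000885). BGLU46, an enzyme that hydrolyses monolignol glucosides, measured 8.18, 8.26, 8.21 and 8.52 with DEX, against 8.96, 8.61, 8.72 and 8.75 with mock. Here too the DEX arrays are all lower, by a narrow margin, and the change was -0.47 ± 0.12 (SE, adjusted p = 0.0182). Without dark DEX replicate 1 (adjusted p = 0.0645) or 3 (0.0551) or dark mock replicate 1 (0.0785) the call on BGLU46 was lost. BGLU45, its neighbour on chromosome 1 and also a monolignol glucosidase, changed by -0.01 in the same comparison (adjusted p = 0.979).

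The genes that rose with DEX in darkness were UGT76C2, UGT76C1 and UGT72E1. UGT76C1 and UGT76C2, neighbours on chromosome 5 in group H, encode the cytokinin N-glucosyltransferases, which inactivate cytokinins. UGT76C2 measured 9.03, 8.91, 9.08 and 9.13 with DEX, against 8.41, 8.48, 8.46 and 8.47 with mock. UGT76C1 measured 7.54, 7.5, 7.3 and 7.43 with DEX, against 7.15, 7.16, 7.03 and 6.99 with mock. All DEX arrays were above all mock arrays for both genes, with rises of 0.58 ± 0.086 (SE, adjusted p = 9.62e-05) for UGT76C2 and 0.36 ± 0.083 (SE, adjusted p = 0.00962) for UGT76C1. UGT72E1, a group E enzyme that glucosylates monolignol aldehydes, measured 8.62, 8.54, 8.55 and 8.76 with DEX, against 8.03, 8.52, 8.11 and 8.05 with mock. The mock replicate at 8.52 stands close below the DEX arrays and apart from the other 3 mock arrays. The rise was 0.44 ± 0.089 (SE, adjusted p = 0.0029), and it ranged from 0.39 to 0.56 when 1 array was left out. Its relatives UGT72E2 (0.25, adjusted p = 0.133) and UGT72E3 (0.10, adjusted p = 0.72) were not called.

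**Figure D2:**
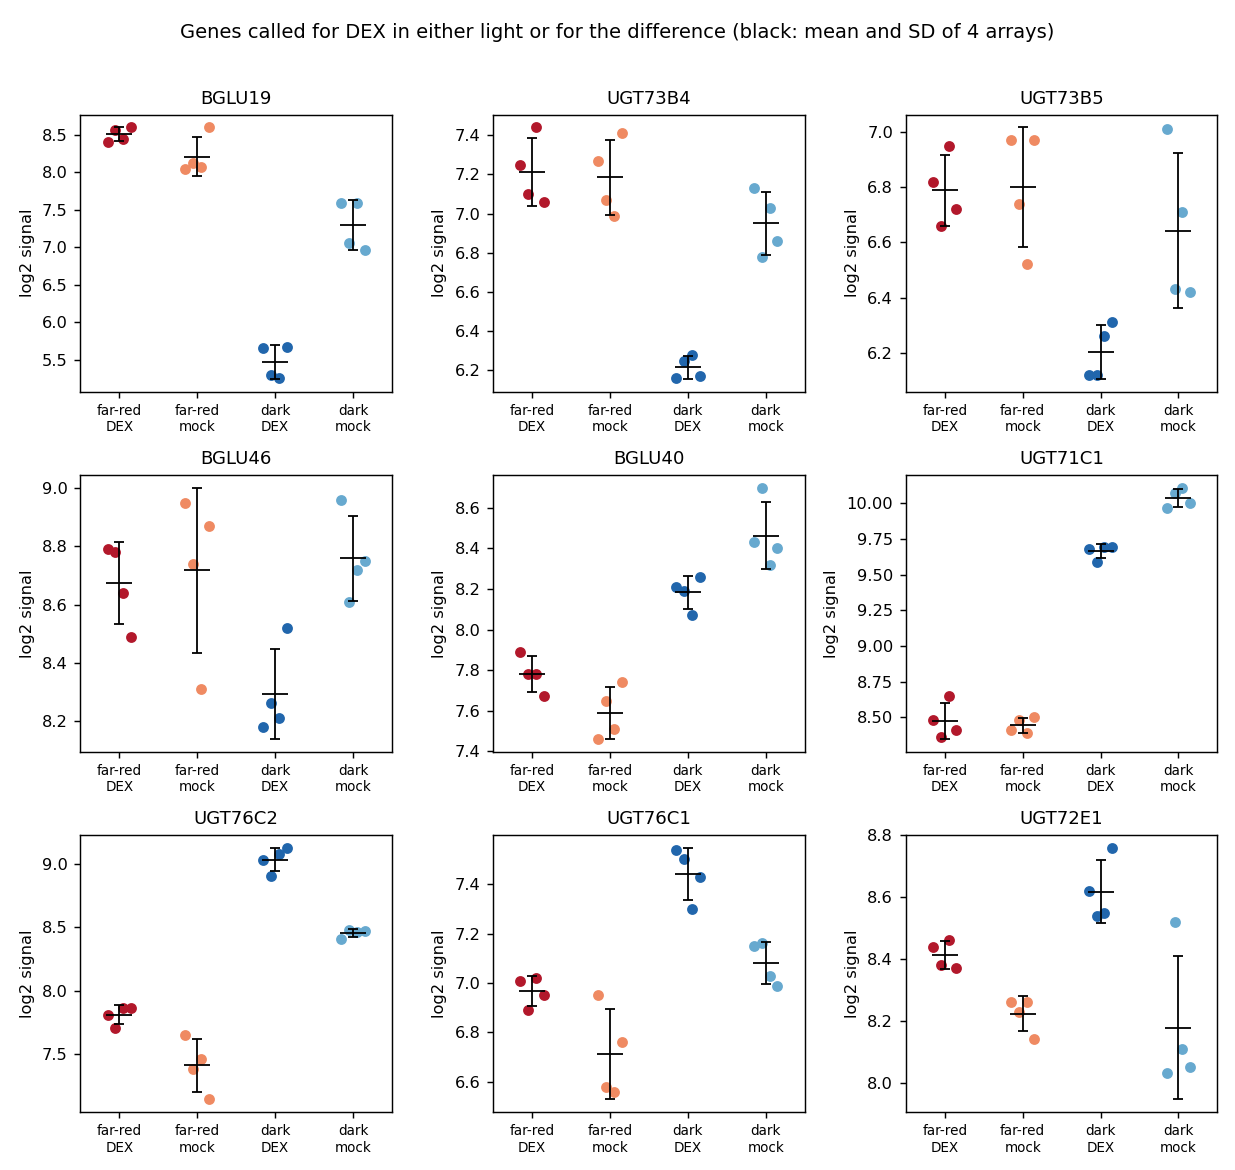
log2 signal (vertical axis) of the 9 genes called for DEX in darkness or far-red or for the difference between the DEX responses, with a point per array in far-red with DEX, far-red with mock, darkness with DEX and darkness with mock from left to right. Black bars are the mean and SD of 4 arrays. BGLU19, UGT73B4, UGT73B5 and BGLU46 have their lowest arrays in darkness with DEX, and UGT76C2 and UGT76C1 have DEX arrays above mock in darkness.

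In far-red light a single member was called for DEX, UGT76C2, which is 1.49% of the 67 genes, against 1.04% of all probe sets. It was higher with DEX, as were 0.919% of all probe sets, and no member was lower, against 0.119% of all probe sets. UGT76C2 measured 7.81, 7.7, 7.86 and 7.86 with DEX, against 7.65, 7.38, 7.46 and 7.14 with mock. The DEX arrays are all higher, though the lowest of them is close to the top mock array. The rise was 0.40 ± 0.086 (SE, adjusted p = 0.0193). The call was lost in 5 of 16 fits that left out 1 array: without far-red DEX replicate 1 (adjusted p = 0.0613), 3 (0.0795) or 4 (0.072), or far-red mock replicate 2 (0.0642) or 4 (0.0607). UGT76C1 was 7.01, 6.89, 7.02 and 6.95 with DEX, against 6.95, 6.58, 6.56 and 6.76 with mock (0.26 ± 0.083, SE, adjusted p = 0.218). UGT72E1 was 8.44, 8.38, 8.46 and 8.37 with DEX, against 8.26, 8.23, 8.26 and 8.14 with mock. Its arrays do not overlap, but the change was not called (0.19 ± 0.089, SE, adjusted p = 0.482). UGT72B3, a close relative of the xenobiotic and monolignol glucosyltransferase UGT72B1, had the largest change of any member in this comparison, 0.42 (adjusted p = 0.0831), short of the threshold. The median change was -0.01 over UGT genes, 0.023 over BGLU genes and -0.019 over all probe sets. DEX arrays lay wholly above or wholly below mock arrays for 6 of the 67 genes, against 6.41% of all probe sets.

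The DEX responses of the families in the 2 light conditions were set against each other directly. The difference, the response in far-red minus that in darkness, was called for 4 of 67 genes (5.97%), 2 UGT and 2 BGLU, against 2.15% of all probe sets. All 4 differences were positive, a direction called for 1.7% of all probe sets, and none was negative, against 0.448% of all probe sets. For BGLU19 the difference was 2.13 ± 0.20 (SE, adjusted p = 4.54e-06) and stayed between 2.03 and 2.26 when 1 array was left out. Both seed markers differed the same way, PAP85 by 1.42 (adjusted p = 0.0309) and AT2G28490 by 1.88 (adjusted p = 4.56e-05).

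UGT73B4 differed by 0.76 ± 0.14 (SE, adjusted p = 0.00387). In far-red its signal was 7.25, 7.1, 7.44 and 7.06 with DEX, against 7.27, 7.07, 6.99 and 7.41 with mock. Those arrays overlap fully and the far-red change was 0.03 (95% interval -0.18 to 0.24). UGT73B5 had overlapping far-red arrays as well, 6.82, 6.66, 6.95 and 6.72 with DEX, against 6.97, 6.74, 6.52 and 6.97 with mock, but its difference of 0.43 did not pass the test (adjusted p = 0.255).

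UGT71C1 differed by 0.41 ± 0.096 (SE, adjusted p = 0.0247). In far-red it measured 8.48, 8.36, 8.65 and 8.41 with DEX, against 8.41, 8.48, 8.39 and 8.5 with mock, which overlap. The call was lost without dark DEX replicate 2 (adjusted p = 0.0579), far-red DEX replicate 3 (0.0642), dark mock replicate 3 (0.0645) or far-red mock replicate 3 (0.0582). BGLU40 measured 7.89, 7.78, 7.78 and 7.67 in far-red with DEX, against 7.46, 7.65, 7.51 and 7.74 with mock, and 8.21, 8.19, 8.07 and 8.26 in darkness with DEX, against 8.43, 8.7, 8.32 and 8.4 with mock. The DEX arrays were all lower than mock in darkness and overlapped it in far-red. Neither change passed on its own (0.19 in far-red, adjusted p = 0.45, and -0.28 in darkness, adjusted p = 0.0597), and their difference was 0.47 ± 0.12 (SE, adjusted p = 0.0426). This call was lost in 12 of 16 fits that left out 1 array (adjusted p 0.0572 to 0.0955) and was kept in the 4 without dark DEX replicate 4, far-red DEX replicate 4, dark mock replicate 3 or far-red mock replicate 4.

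The members that rose with DEX in darkness had no called difference: -0.18 for UGT76C2 (95% interval -0.44 to 0.070, adjusted p = 0.593), -0.10 for UGT76C1 (-0.35 to 0.14, adjusted p = 0.807) and -0.25 for UGT72E1 (-0.51 to 0.014, adjusted p = 0.429). For UGT72E1 the value was -0.363 and passed without dark mock replicate 2 (adjusted p = 0.0456). BGLU46 was 8.79, 8.78, 8.64 and 8.49 in far-red with DEX, against 8.95, 8.74, 8.31 and 8.87 with mock, and its difference of 0.42 did not pass (95% interval 0.076 to 0.77, adjusted p = 0.258).

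Light separated many more of the genes than DEX did. Under DEX, 38 of 67 (56.7%) differed between far-red and darkness, against 39.7% of all probe sets. These were 29 of 47 UGT genes (61.7%) and 9 of 20 BGLU genes (45%). Higher in far-red were 13 UGT and 4 BGLU genes, against 17.5% of all probe sets, and lower were 16 UGT and 5 BGLU genes, against 22.2%. Under mock, 29 of 67 (43.3%) differed, against 38.6% of all probe sets. These were 22 UGT genes (46.8%), 7 higher and 15 lower, and 7 BGLU genes (35%), 2 higher and 5 lower, where 17.8% of all probe sets were higher and 20.8% lower. The medians were near 0 throughout: -0.053 for UGT, -0.06 for BGLU and -0.026 for all probe sets under DEX, and 0.038 for UGT, -0.063 for BGLU and -0.004 for all probe sets under mock. The far-red arrays lay wholly apart from the dark arrays for 34 members under DEX, against 39.7% of all probe sets, and for 29 members under mock, against 34.5%.

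These shares differed with brightness. Among genes whose mean over the 16 arrays reached the lower quartile, 28 of 41 UGT genes (68.3%) and 7 of 9 BGLU genes (77.8%) were called under DEX, against 50.5% of all probe sets as bright. With mock they were 21 of 41 UGT genes (51.2%) and 6 of 9 BGLU genes (66.7%), against 49.2%. Among the dimmer genes 1 of 6 UGT and 2 of 11 BGLU genes were called under DEX, against 7.23% of all dimmer probe sets, and 1 of 6 UGT and 1 of 11 BGLU genes under mock, against 6.7%.

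The light comparisons under DEX and under mock share no array, and 27 genes had the same call in both, 8 higher and 19 lower in far-red. That is 71.1% of the 38 genes called under DEX and 93.1% of the 29 called under mock. Over all probe sets the same call was made for 76% of those called under DEX and 78.1% of those called under mock. No member had opposite calls. The 9 genes called higher and the 2 called lower under DEX alone do not thereby differ between treatments: of these only UGT73B4 also had a called difference of DEX responses, which equals the difference of its light changes.

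**Figure D3:**
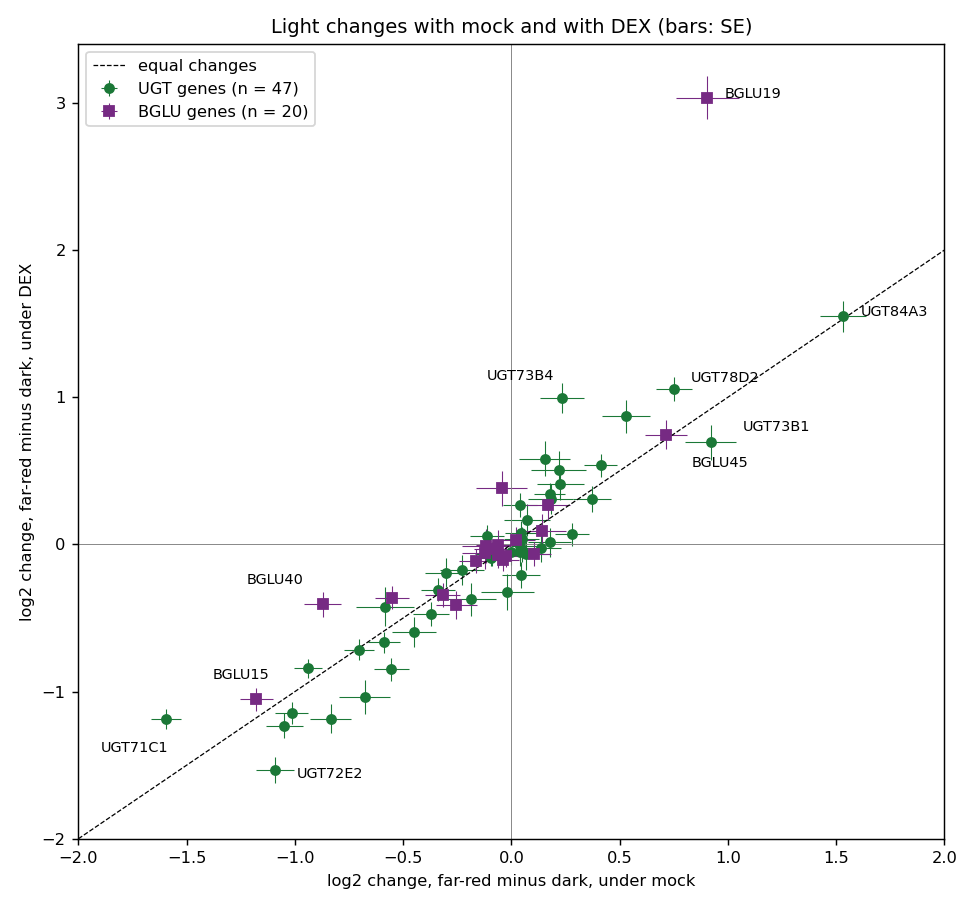
log2 change of each gene between far-red and darkness under DEX (vertical axis) against that under mock (horizontal axis), with SE bars, green circles for UGT and purple squares for BGLU genes. The dashed line marks equal changes. Most genes lie near it, such as UGT84A3 at 1.55 under DEX and 1.53 under mock, while BGLU19 lies far above it at 3.04 under DEX and 0.91 under mock.

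Of the genes for phenolic conjugates, UGT84A3 and UGT78D2 were higher in far-red under both treatments. UGT84A3 (group L), which makes glucose esters of hydroxycinnamic acids, measured 6.01, 6.01, 6.0 and 6.17 in far-red with DEX, against 4.68, 4.61, 4.42 and 4.28 in darkness with DEX. Under mock it measured 6.38, 5.87, 5.99 and 5.9 in far-red, against 4.62, 4.48, 4.35 and 4.56 in darkness. The light groups are over 1 log2 unit apart in both treatments, with changes of 1.55 ± 0.10 under DEX (adjusted p = 1.43e-10) and 1.53 ± 0.10 under mock (SE, adjusted p = 2.18e-10). Its neighbours on chromosome 4 with the same chemistry did not follow: UGT84A1 changed by -0.06 under DEX and 0.07 under mock, neither called, and UGT84A4 was lower under mock (-0.30, adjusted p = 0.0157) and not called under DEX (-0.19). The call on UGT84A4 was lost without far-red mock replicate 4 (adjusted p = 0.0555).

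UGT78D2 (group F), the anthocyanidin and flavonol 3-O-glucosyltransferase, measured 8.03, 8.08, 8.0 and 8.11 in far-red with DEX, against 7.12, 7.03, 6.87 and 6.98 in darkness with DEX. The mock arrays read 7.94, 7.84, 7.85 and 7.77 in far-red, against 7.04, 7.17, 6.87 and 7.32 in darkness. Every far-red array was above every dark array. The changes were 1.05 ± 0.082 under DEX (adjusted p = 1.4e-09) and 0.75 ± 0.082 under mock (SE, adjusted p = 2.53e-07). Its group order was far-red with DEX, far-red with mock, darkness with mock and darkness with DEX. Neighbours within a light condition did not differ by the test (0.21, adjusted p = 0.366 in far-red and -0.10, adjusted p = 0.647 in darkness). In far-red, though, every DEX array was above every mock array. The flavonol rhamnosyltransferase UGT78D1 moved the other way, by -0.42 under DEX (adjusted p = 0.0144) and -0.58 under mock (adjusted p = 0.00127). Without dark DEX replicate 1 (adjusted p = 0.0523) or far-red DEX replicate 2 (0.063) the call on UGT78D1 under DEX was lost. The arabinosyltransferase UGT78D3, next to UGT78D2 on chromosome 5, was not called (0.03 under DEX and 0.05 under mock). It was dim, under the lower quartile in every group. Of 23 flavonoid synthesis genes listed, only 3 (DFR, BAN and AT5MAT) had a named single-gene probe set, and these had no call in any comparison. The rest of the list was not assessed, so the pathway as a whole cannot be described here. For light, 39.7% of all probe sets were called under DEX and 38.6% under mock. BAN was dim, under the lower quartile in every group, and DFR was under it in both dark groups. The light change of DFR was 0.21 under DEX (adjusted p = 0.172) and 0.28 under mock (adjusted p = 0.0618).

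In group D, 4 of 7 genes were higher in far-red under DEX and 1 lower, where 17.5% of all probe sets were higher and 22.2% lower. With mock 2 of the 7 were higher and none lower, where 17.8% of all probe sets were higher and 20.8% lower. UGT73B1 rose by 0.69 under DEX (adjusted p = 6.38e-05) and 0.92 under mock (adjusted p = 2.24e-06). UGT73B4 was higher under DEX (0.99 ± 0.10, SE, adjusted p = 5.91e-08), with every far-red array above every dark one, and not called under mock (0.23, adjusted p = 0.0727). UGT73B5 was likewise higher under DEX (0.58 ± 0.12, SE, adjusted p = 0.00042) and not called under mock (0.15, adjusted p = 0.349). UGT73C7 was higher under DEX (0.27), and the dim UGT73C1 was higher under mock (0.28). UGT73D1, next to UGT73C7 on chromosome 3, was lower under DEX (-0.32, adjusted p = 0.043), a call lost without dark DEX replicate 1 (0.0809) or 4 (0.191) or far-red DEX replicate 1 (0.0584), 3 (0.0704) or 4 (0.128). The dim UGT73C2 was not called.

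Group E, with 14 genes, had 3 higher and 6 lower in far-red under DEX, against 17.5% and 22.2% of all probe sets. With mock it had 1 higher and 6 lower, against 17.8% and 20.8% of all probe sets. UGT71C1 was the most lowered of all UGT genes under mock. The per-array values above place all 8 far-red arrays between 8.36 and 8.65 and all 8 dark arrays between 9.59 and 10.11. Its changes were -1.19 ± 0.068 under DEX (adjusted p = 1.29e-11) and -1.60 ± 0.068 under mock (SE, adjusted p = 1.77e-13). UGT71C3 fell by 0.84 under DEX and 0.94 under mock, and UGT71C5, which glucosylates abscisic acid, by 0.31 and 0.34 in the same order. UGT71C4, between them on chromosome 1, and UGT71C2, next to UGT71C1 on chromosome 2, were called in neither light comparison.

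UGT72E2, the main enzyme that glucosylates monolignols, measured 6.05, 6.47, 6.32 and 6.3 in far-red with DEX, against 7.78, 7.71, 7.84 and 7.95 in darkness with DEX. Under mock it measured 6.53, 6.31, 6.5 and 6.58 in far-red, against 7.67, 7.63, 7.39 and 7.6 in darkness. Every far-red array is below every dark array, with the wider gap under DEX. The changes were -1.53 ± 0.089 under DEX (adjusted p = 1.72e-11) and -1.09 ± 0.089 under mock (SE, adjusted p = 3.45e-09), and their difference of -0.44 did not pass (adjusted p = 0.0793). UGT72E3 fell with it, by 0.59 under DEX and 0.45 under mock. UGT72E1 was called in neither (-0.21 under DEX, adjusted p = 0.075, and 0.04 under mock, adjusted p = 0.755). Also lower was UGT88A1, by 0.85 under DEX and 0.55 under mock. UGT72B3 rose, by 0.87 under DEX (adjusted p = 1.44e-06) and 0.53 under mock (adjusted p = 0.000556). UGT71B6, another abscisic acid glucosyltransferase, rose under DEX (0.41, adjusted p = 0.00378), as did UGT71B1 (0.31, adjusted p = 0.0192), whose call was lost without dark DEX replicate 2 (0.0664) or far-red DEX replicate 1 (0.0647) or 4 (0.0626). HCT, the 1 measured gene of 10 listed for lignin synthesis, fell by 1.16 under DEX and 0.91 under mock.

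Group H had 7 of 8 genes called under DEX, 2 higher and 5 lower, against 39.7% of all probe sets called and 22.2% lower. With mock it had 4 of 8 called, all lower, against 38.6% of all probe sets called and 20.8% lower. UGT76C2 fell by 1.23 under DEX (adjusted p = 2.39e-10) and 1.05 under mock (SE 0.086 for both, adjusted p = 3.34e-09), with all far-red arrays below all dark arrays in each treatment. UGT76C1 fell by 0.47 under DEX (adjusted p = 8.54e-05) and 0.37 under mock (SE 0.083 for both, adjusted p = 0.00108). The pair thus was lower in far-red than in darkness and higher with DEX than with mock in darkness, comparisons that share the dark arrays. UGT76B1, which glucosylates the immune signals isoleucic acid and salicylic acid, fell by 1.04 under DEX and 0.68 under mock, and UGT76E2 by 0.67 and 0.59. UGT76D1 was lower under DEX alone (-0.37, adjusted p = 0.0108). UGT76E11 (0.51) and UGT76E12 (0.35), neighbours on chromosome 3, were higher under DEX and not called under mock. UGT76E1, a dim gene next to UGT76E2 on chromosome 5, was called in no comparison.

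**Figure D4:**
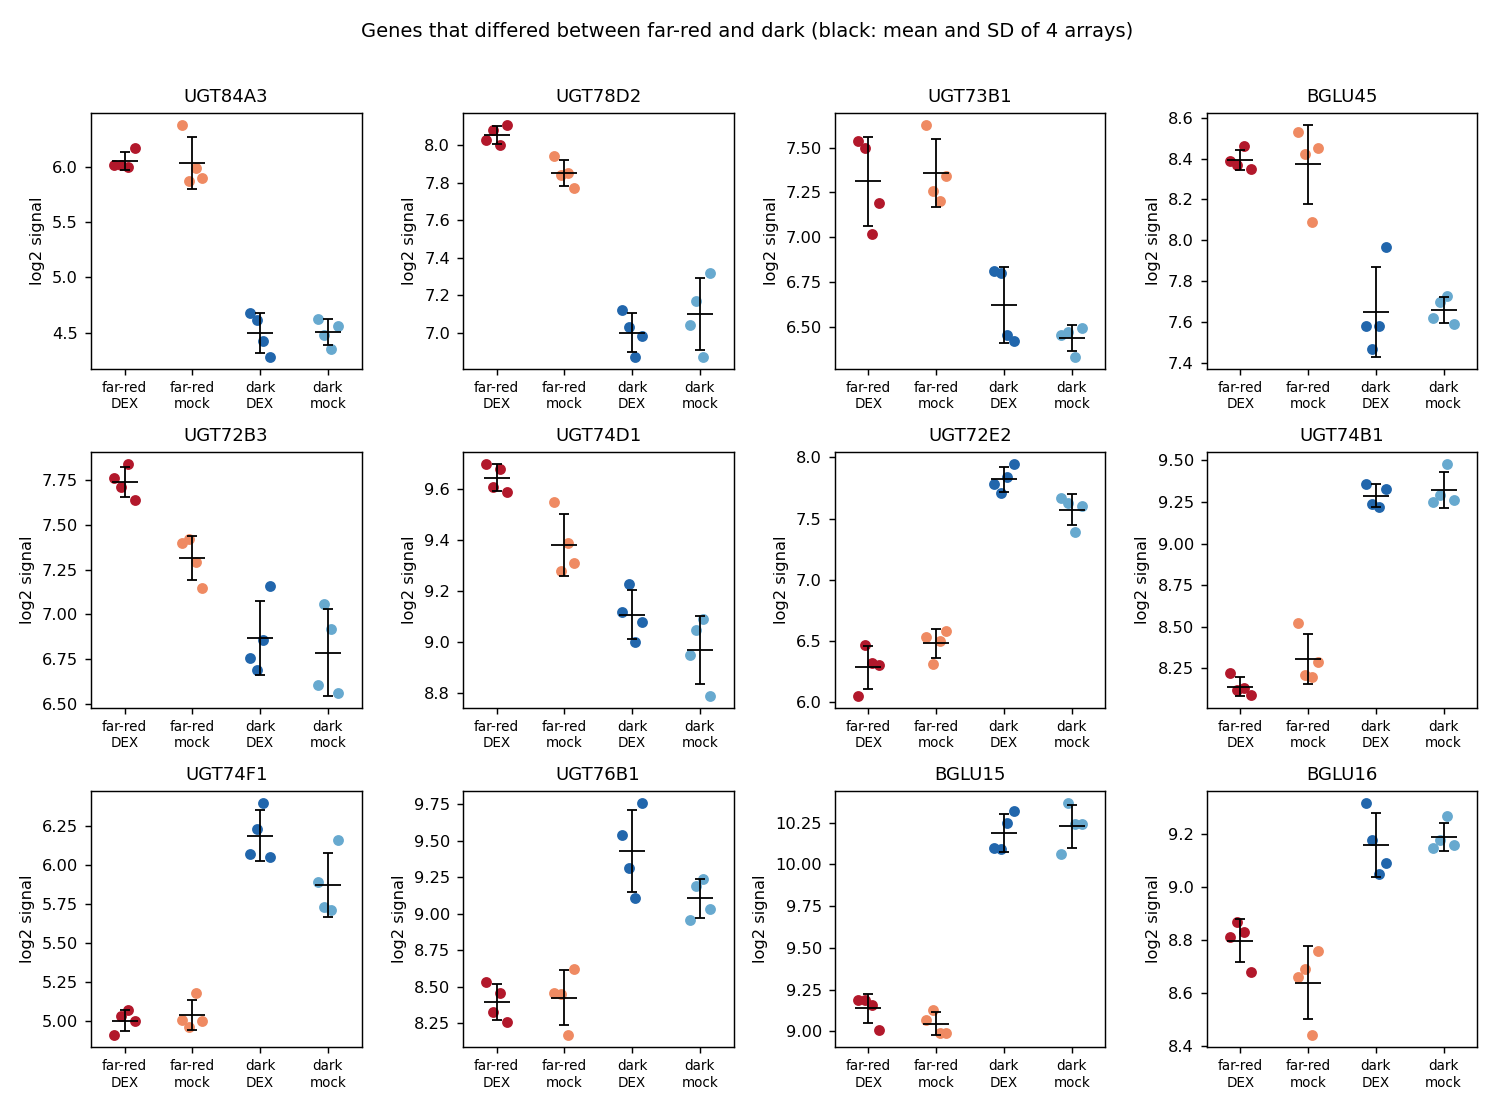
log2 signal (vertical axis) of 12 genes called between far-red and darkness under both treatments, with a point per array in far-red with DEX, far-red with mock, darkness with DEX and darkness with mock from left to right, and the mean and SD of 4 arrays in black. The top row and the first 2 genes of the middle row are higher in far-red, such as UGT78D2 at 7.77 to 8.11 in far-red and 6.87 to 7.32 in darkness, and the others are lower in far-red.

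In group L, UGT74B1, the S-glucosyltransferase of glucosinolate synthesis, measured 8.22, 8.12, 8.13 and 8.09 in far-red with DEX, against 9.36, 9.24, 9.22 and 9.33 in darkness with DEX. With mock it measured 8.52, 8.21, 8.2 and 8.29 in far-red, against 9.25, 9.29, 9.48 and 9.26 in darkness. The groups do not overlap in either treatment. The changes were -1.15 ± 0.076 under DEX (adjusted p = 1.25e-10) and -1.02 ± 0.076 under mock (SE, adjusted p = 9.8e-10). Of 27 glucosinolate genes listed, 3 were measured. BCAT4, an enzyme of methionine chain elongation, was higher in far-red by 0.79 under DEX and 0.98 under mock, the transporter gene GTR2 fell by 0.82 under DEX and 0.69 under mock, and GTR1 was not called.

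UGT74F1, a salicylic acid glucosyltransferase, measured 4.91, 5.03, 5.07 and 5.0 in far-red with DEX, against 6.07, 6.23, 6.4 and 6.05 in darkness with DEX. Under mock it measured 5.01, 4.96, 5.18 and 5.0 in far-red, against 5.89, 5.73, 5.71 and 6.16 in darkness. Far-red arrays were again all lower, by 1.18 ± 0.096 under DEX (adjusted p = 2.36e-09) and 0.84 ± 0.096 under mock (SE, adjusted p = 4.57e-07) in the means. UGT74D1, which glucosylates auxins, was higher in far-red by 0.54 under DEX (adjusted p = 8.05e-06) and 0.41 under mock (adjusted p = 0.000212). The auxin enzyme UGT84B1 and its neighbour UGT84B2, a dim gene, were called in no comparison. Among 16 other genes listed for inactivation of auxin, cytokinin and brassinosteroid, 4 were measured. WES1, an auxin-conjugating GH3 gene, fell with DEX in darkness (-0.62, adjusted p = 0.000235), AT1G14130, an auxin oxidase gene, rose (0.50, adjusted p = 3.04e-05), and GH3.3 and GH3.17 were not called there. Between far-red and darkness, AT1G14130 was lower under DEX (-0.57, adjusted p = 3.8e-07) and not called under mock (-0.05), GH3.17 was higher under DEX (0.45, adjusted p = 0.00191) and not called under mock (0.24), and WES1 was lower under mock (-0.74, adjusted p = 3.85e-06) and not called under DEX (-0.14). GH3.3 was called in neither. The DEX responses of WES1 (0.60, adjusted p = 0.024) and AT1G14130 (-0.53, adjusted p = 0.00232) differed between far-red and darkness.

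The remaining UGT genes belong to groups G and J or lie outside the lettered groups. In group G, 1 of 5 genes was called in each light comparison, against 39.7% of all probe sets under DEX and 38.6% under mock. In group G, with 5 genes, UGT85A5 rose in far-red by 0.31 under DEX (adjusted p = 0.00744) and 0.37 under mock (adjusted p = 0.00177), and its neighbours on chromosome 1, UGT85A7, UGT85A2 and UGT85A3, were not called, nor was UGT85A4. UGT80B1, a sterol glucosyltransferase outside the lettered groups, fell by 0.71 under DEX (adjusted p = 5.27e-08) and 0.70 under mock (adjusted p = 8.18e-08). UGT87A2 of group J, known for an effect on flowering time, had no call. UGT71B5 and UGT71B8 of group E were also called in none of the 5 comparisons.

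**Figure D5:**
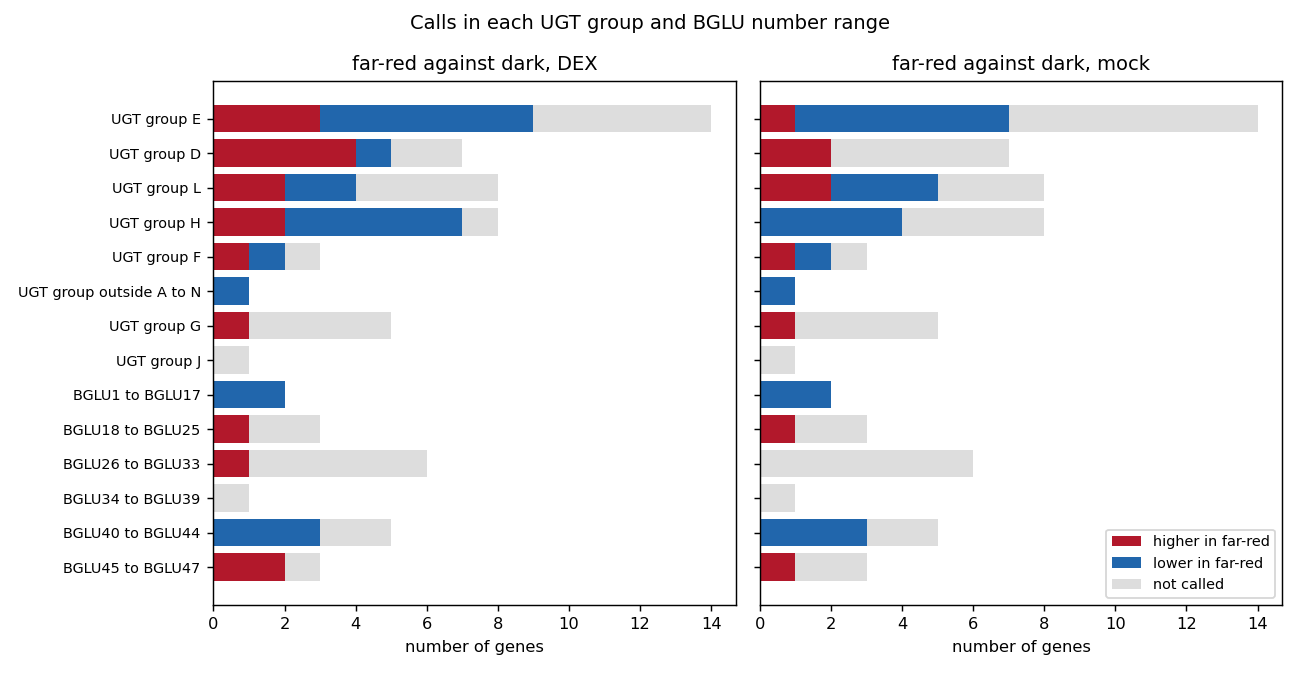
Number of genes (horizontal axis) higher in far-red, lower in far-red and not called, for each UGT group and BGLU number range (rows), under DEX (left) and under mock (right). Group H has 5 lower and 2 higher of 8 under DEX and 4 lower of 8 under mock, group D has 4 and 2 of 7 higher, and BGLU26 to BGLU33 has 1 call under DEX and none under mock.

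Among BGLU genes, BGLU19 had the largest light change. It was higher in far-red by 3.04 ± 0.14 under DEX (8.2-fold, adjusted p = 8.57e-13) and by 0.91 ± 0.14 under mock (1.87-fold, SE, adjusted p = 3.17e-05), and the excess under DEX is the difference of 2.13 given above. The seed markers were also higher in far-red, PAP85 by 2.08 under DEX and 0.66 under mock and AT2G28490 by 2.36 under DEX and 0.47 under mock, all called, and their part was not tested. BGLU25 and the dim BGLU24 were not called. Of 18 ER body genes listed, 7 were measured, and 2 were higher and 4 lower in far-red under DEX, where 39.7% of all probe sets were called, and 2 higher and 2 lower under mock, where 38.6% were called. NAI1, the transcription factor that sets up ER bodies, fell by 1.51 under DEX (adjusted p = 1.14e-07) and 1.19 under mock (adjusted p = 3.55e-06). The lectin gene JAL34 fell by 0.85 under DEX and 0.95 under mock, and JAL22 rose by 0.68 and 0.53. PYK10 was not called, and the shared probe set of BGLU22 and BGLU21 was lower, by 0.76 under DEX (adjusted p = 9.33e-05) and 0.99 under mock (adjusted p = 4.6e-06), so BGLU19 and its relatives in the range did not go one way.

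BGLU15, which removes glucose from flavonol bisglycosides, measured 9.19, 9.19, 9.16 and 9.01 in far-red with DEX, against 10.1, 10.09, 10.25 and 10.32 in darkness with DEX. Mock arrays read 9.07, 9.13, 8.99 and 8.99 in far-red, against 10.06, 10.37, 10.24 and 10.24 in darkness. The far-red arrays were lower without overlap, by 1.05 ± 0.076 under DEX (adjusted p = 4.31e-10) and 1.18 ± 0.076 under mock (SE, adjusted p = 9.68e-11) in the means. BGLU16, the other measured member of BGLU1 to BGLU17, fell by 0.36 under DEX and 0.55 under mock. BGLU15 stands beside the dim genes BGLU28 and BGLU29 on chromosome 2, which had no call.

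In BGLU40 to BGLU44, 3 of 5 genes were lower in far-red under DEX, against 22.2% of all probe sets, and 3 of 5 under mock, against 20.8%, and none was higher in either. BGLU40 fell by 0.41 ± 0.084 under DEX (adjusted p = 0.000489) and 0.87 ± 0.084 under mock (SE, adjusted p = 3.88e-08), with no overlap between light groups. BGLU42, known from iron deficiency responses of roots, fell by 0.34 under DEX and 0.32 under mock. BGLU43, under the lower quartile in every group, measured 3.76, 3.93, 3.92 and 3.59 in far-red with DEX, against 4.24, 4.24, 4.08 and 4.3 in darkness with DEX, and 3.81, 4.05, 3.74 and 3.78 in far-red with mock, against 4.18, 4.07, 4.27 and 3.87 in darkness with mock. The DEX groups are apart and the mock groups overlap. Its changes were -0.41 ± 0.095 under DEX (adjusted p = 0.00128) and -0.25 ± 0.095 under mock (SE, adjusted p = 0.0393), the second lost in 6 of 16 fits that left out 1 array, namely dark mock replicate 1 (adjusted p = 0.0972), 2 (0.0593) or 3 (0.142) or far-red mock replicate 1 (0.0816), 3 (0.108) or 4 (0.0895). BGLU44, beside it on chromosome 3, and the dim BGLU41 were not called.

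The monolignol glucosidase BGLU45 measured 8.39, 8.37, 8.46 and 8.35 in far-red with DEX, against 7.58, 7.47, 7.58 and 7.97 in darkness with DEX. Under mock it measured 8.53, 8.42, 8.09 and 8.45 in far-red, against 7.62, 7.7, 7.73 and 7.59 in darkness. It was higher in every far-red array, by 0.75 ± 0.099 under DEX (adjusted p = 2.65e-06) and 0.71 ± 0.099 under mock (SE, adjusted p = 5.58e-06) in the means, while the monolignol glucosyltransferases UGT72E2 and UGT72E3 were lower. BGLU46 was higher under DEX (0.38 ± 0.12, SE, adjusted p = 0.0132), with overlapping arrays, and not called under mock (-0.04, adjusted p = 0.82). BGLU47, a dim gene, had no call. BGLU33, dim in every group, was called higher under DEX (0.27, adjusted p = 0.0414), a call lost without dark DEX replicate 1 (0.0842), 3 (0.101) or 4 (0.0704) or far-red DEX replicate 1 (0.144) or 2 (0.13). The other dim genes, BGLU27, BGLU31, BGLU32 and BGLU36, had none.

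Many members stand next to each other in the genome: 41 of the 67, 30 UGT and 11 BGLU genes, lie in 18 clusters in which neighbouring members have at most 1 gene between them in the RefSeq annotation. For light under DEX, all members shared a call in 4 clusters, UGT76C1 with UGT76C2 (lower), and UGT73B4 with UGT73B5, UGT76E11 with UGT76E12 and BGLU45 with BGLU46 (higher). Called members ran in opposite directions in 1 cluster, with UGT73D1 lower and UGT73C7 higher, in 10 some members were called and others not, and in 3 none was called. For light under mock, 1 cluster shared a call, UGT76C1 with UGT76C2, 1 had opposite calls, with UGT84A3 higher and UGT84A4 lower, 10 were mixed and 6 had none. A call beside a missed call is not a tested difference between genes. Of all 67 members 56.7% were called under DEX and 43.3% under mock, against 39.7% and 38.6% of all probe sets. Clusters of other genes were not counted, so these tallies do not show whether neighbours share calls more often than other genes.

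Of the family members outside the rule, UGT73B2 with UGT73B3 rose in far-red by 1.11 under DEX and 0.69 under mock. GT72B1 (UGT72B1) fell by 1.02 under DEX (adjusted p = 1.27e-07) and 0.50 under mock (adjusted p = 0.000898), and SGT, a sterol glucosyltransferase gene (UGT80A2), by 0.21 in each. The probe set of UGT71D1 and AT2G29710 fell by 0.51 under DEX and 0.62 under mock, and that of AT1G73885 and UGT89B1 was higher under mock alone (0.32). UF3GT (UGT79B1), AT5G54010 (UGT79B6) and ATA27 (BGLU20) had no call. Of the other lists, none of 18 myrosinase system genes and none of 12 abscisic acid metabolism genes had a named single-gene probe set.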

How the data were processed

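The authors deposited log2 signals for 22810 probe sets on 16 arrays. Per the submitters' processing notes RMA and affy were used. No version, background step or filter is stated. Groups came from the sample titles. After 64 control probe sets were left out, one limma 3.58.1 model (R 4.3.3) gave a mean per group over all 16 arrays, and each contrast was tested two-sided with Benjamini-Hochberg adjustment over 22746 probe sets. The code was tested on simulated data. Of the probe sets, 13513 name 1 gene, 503 several, and 8730 are unnamed here. A listed gene is called measured only if it has a named single-gene probe set. The brightest single-gene probe set stood for a gene, and all 67 members matched RefSeq. UGT groups follow family numbers. Members and gene lists were chosen with earlier results of these data known. Full values were given for UGT78D2, BGLU19, members called for DEX or the difference, and, in each light comparison separately, the 5 UGT and 4 BGLU genes with the largest called changes. The arrays have nearly equal medians, so a shift common to all genes cannot be detected. No pairing by replicate number is stated, and none was used in the main model. As deviations from group means, same-numbered arrays of different groups correlated at -0.151 to 0.319 (median 0.0445). Arrays with different numbers correlated at -0.261 to 0.284 (median -0.0365). Alternatives included other variance priors, quantile normalisation, array weights, no dim probe sets, a replicate block and leaving out each array.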

Additional observations from a re-analysis of the deposited data

Results flagged for a closer look

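In 68 sets of 4 arrays, for 17 genes given with all their values in 4 groups, 5 arrays lay far from the other 3 by Dixon's test at its 95% level, which chance passes in about 1 of 20 sets. UGT71C1 was 9.59 in dark DEX replicate 2, against a mean of 9.69 in the other arrays of its group. UGT72E1 was 8.52 in dark mock replicate 2, against 8.06. UGT84A3 was 6.17 in far-red DEX replicate 4, against 6.01, and BGLU15 was 9.01 in the same array, against 9.18. BGLU19 was 8.6 in far-red mock replicate 4, against 8.08. The DEX response was tested to differ between far-red and darkness, as far-red minus dark, for UGT71C1 (0.41), UGT73B4 (0.76), BGLU19 (2.13) and BGLU40 (0.47).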

How the results depend on the processing

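Of 80 calls on members over the 5 comparisons, 69 were kept in every alternative run that covered them. A further 11 were lost in at least 1 and 0 reversed, and 20 results without a call gained one in at least 1. Without dim probe sets only 75 calls could be checked, and calls on the difference were not refitted with only the groups compared. With a trended and robust variance prior, 2 UGT genes were called for DEX in far-red, UGT72B3 being added, and with array weights 1 BGLU gene was called for the difference. Leaving out 1 array gave 1 to 3 BGLU and 5 to 7 UGT genes for DEX in darkness, 0 to 2 UGT genes for DEX in far-red, and 1 to 3 UGT and 1 to 2 BGLU genes for the difference. For far-red against darkness it gave 27 to 30 UGT and 8 to 9 BGLU genes under DEX, and 22 to 25 and 6 to 7 under mock. The replicate block left the counts at 6 UGT and 2 BGLU genes for DEX in darkness, 1 and 0 in far-red, 29 and 9 for light under DEX, 22 and 7 under mock, and 2 and 2 for the difference, and no member's call was lost. Whether the replicate numbers pair the arrays was not settled. Of 24 same-numbered pairs 7 correlated above 0.1, and 1 of 16 arrays correlated best with its own number in every other group, a strict rule. With only the groups compared, UGT73B5 in darkness (adjusted p = 0.0502), UGT76C2 in far-red (0.0916) and BGLU43 under mock (0.0577) lost their calls. UGT72B3 for DEX in far-red (adjusted p = 0.0186) and UGT72E1 for light under DEX (0.0276) gained calls in that fit. The member called for DEX in far-red thus changed from UGT76C2 to UGT72B3. For the difference that fit is the same as the one reported. With array weights UGT84A4 under mock (adjusted p = 0.0594), BGLU43 under mock (0.0509), BGLU33 under DEX (0.0526) and BGLU40 in the difference (0.0507) lost theirs, as did UGT73D1 under DEX with quantile normalisation (0.0646). The causes were not tested. The files give no detection call, so a low signal here means only a low rank among probe sets, as for 11 BGLU genes.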
